A study of Homo sapiens with 12 samples.

Results

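The transcripts described here are the 6 cofactors of the TEAD transcription factors that are encoded by YAP1 (the protein YAP), WWTR1 (the protein TAZ) and the vestigial-like genes VGLL1, VGLL2, VGLL3 and VGLL4. The members were chosen by gene name, and all 6 had a row among the 20345 Ensembl gene rows of the expression table. RNA-seq was performed on HGC-27, a human gastric cancer cell line. Its 12 libraries fell into 4 groups of 3, namely WT cells given no treatment, WT cells given GLUP, cells labelled TEAD4KO given no treatment, and cells labelled TEAD4KO given GLUP. GLUP is a "glue" peptide built on the motif with which VGLL4 binds TEAD4, and the labels give no dose and no time of exposure for it. The labels call the untreated samples treatment none, while the methods of the study name the storage buffer of the peptide as the negative control. The labels give the knockout only as TEAD4KO, and neither they nor the methods say whether these cells were 1 clone or which part of TEAD4 was edited. All values are in FPKM, fragments scaled by the length of the gene and the mapped total of the library, which can be compared between genes. The depth of the libraries is unknown, so the error of each value is the spread between the 3 libraries of a group.

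TEAD proteins bind DNA but activate or repress their targets only through partners. YAP and TAZ are paralogous coactivators at the end of the Hippo pathway, whose LATS kinases phosphorylate them so that they are held in the cytoplasm or degraded. The VGLL proteins share with each other a short Tondu motif that contacts the same face of TEAD as YAP and TAZ do. VGLL1, VGLL2 and VGLL3 carry a single copy of this motif, whereas VGLL4 carries a pair of copies, competes with YAP and TAZ for TEAD and acts as a corepressor. The design allowed the question whether the transcripts of these cofactors, one of which supplied the template of GLUP, differed with the peptide or with the TEAD4KO label.

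The libraries were rich in some mesenchymal transcripts and poor in those of differentiated stomach. VIM, the intermediate filament vimentin, lay between 1238 and 1704 FPKM, and the transcription factor ZEB1 between 15.9 and 23.3 FPKM, while CDH2 did not exceed 0.149 FPKM. Of the 5 epithelial markers 2 reached a mean of 1 FPKM (CDH1 with 2.04 to 3.68 FPKM, and KRT8), and EPCAM did not exceed 0.169 FPKM. Of the 6 gastric mucosa markers 0 reached a mean of 1 FPKM, and TFF1, TFF2 and GKN1 were listed at 0 in all 12 libraries, so the label of gastric cancer cells could not be checked by mucosal genes. Markers of blood (0 of 3), endothelium (0 of 1 with a row) and hepatocytes (0 of 1) did not reach a mean of 1 FPKM either. Rows at 0 made up 21.1% to 22.3% of each WT library and 23.7% to 25.5% of each library labelled TEAD4KO. TEAD4 itself ran against the label, since its transcript was between 22.9 and 25.8 FPKM in the 6 WT libraries and between 26.0 and 30.1 FPKM in the 6 libraries labelled TEAD4KO. A transcript level need not report an edit that leaves the transcript in place, and the genotype is therefore written as a label below.

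Only 3 of the 6 cofactors were transcribed at a level that could be compared between groups. YAP1 was the most abundant with a mean of 35.2 FPKM over the 12 libraries, above 90.9% of all rows. WWTR1 followed with a mean of 20.6 FPKM (above 84.0% of rows) and VGLL4 with 12.05 FPKM (above 74.9% of rows). This order held in 12 of 12 libraries and the ranges did not touch, since the lowest YAP1 value was 30.9 FPKM, WWTR1 ran from 16.7 to 24.7 FPKM and the highest VGLL4 value was 15.1 FPKM. VGLL1 and VGLL2 were listed at 0 in all 12 libraries. VGLL3 was above 0 in 3 libraries, at 0.00523 and 0.00849 FPKM in untreated WT replicates 1 and 3 and at 0.00846 FPKM in GLUP-treated WT replicate 14, and was listed at 0 in the other 9. VGLL1, VGLL2 and VGLL3 fell below the filter of a mean of at least 1 FPKM that 11225 of the 20345 rows passed, and they were not in the tested set. In the fit without a filter VGLL3 had an adjusted p of 0.707 or more in each of the comparisons (limma). The corepressor VGLL4 was thus the only VGLL gene in this line above the filter.

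**Figure D1:**
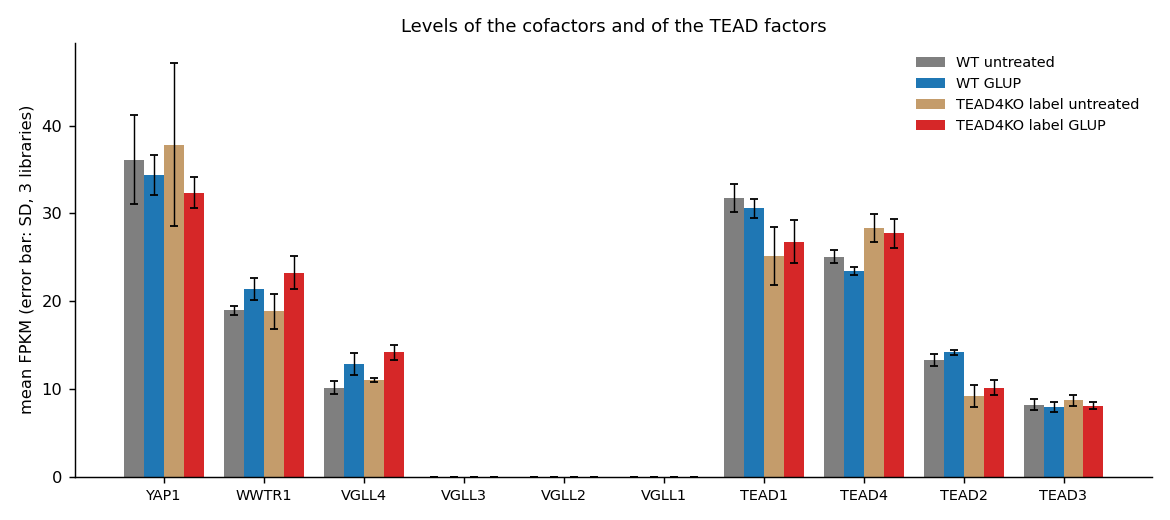
Mean FPKM of the 6 cofactors and the 4 TEAD factors in each group (bars, with the SD of 3 libraries as error bars). YAP1 stood highest of the cofactors in each group, followed by WWTR1 and VGLL4, while VGLL1, VGLL2 and VGLL3 were at or near 0.

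On GRCh37, YAP1 (ENSG00000137693) lies on the plus strand of chromosome 11 from 101981178 to 102104155, with 11 annotated transcripts of up to 5401 bases. WWTR1 (ENSG00000018408) lies on the minus strand of chromosome 3 from 149235022 to 149454501, with 12 annotated transcripts. VGLL4 (ENSG00000144560) lies on the minus strand of the same chromosome from 11597543 to 11812824, with 18 annotated transcripts. The other 3 genes are VGLL1 (ENSG00000102243, chromosome X, 135614374 to 135638966), VGLL2 (ENSG00000170162, chromosome 6, 117586721 to 117594728) and VGLL3 (ENSG00000206538, chromosome 3, 86925538 to 87040299). The values are given per gene, so they do not tell which of the annotated starts of WWTR1 or VGLL4 was used.

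Because GLUP targets TEAD and the members differ in how they ran with it, the promoters were searched for the core of the M-CAT element that TEAD binds. RefSeq promoter windows of 300 bases existed for all 6 genes, 11 in number, with 1 each for YAP1, VGLL1, VGLL2 and VGLL3, 2 for WWTR1 and 5 for VGLL4, and each of the 11 matched GRCh37 exactly at a single place. The letters GGAATG, or CATTCC on the other strand, occurred in 2 of these windows, those of YAP1 and VGLL1, and in 14.03% of all 35116 RefSeq windows. The match began 162 bases before the start of YAP1 and 157 bases before the start of VGLL1. The windows of WWTR1 and VGLL4 held neither spelling. The 250 bases before the start are shown for the 3 expressed genes and for VGLL1, taking the window richest in G and C where a gene had several, 5′ to 3′ on the strand of the gene, with the core in capitals (chr11:101980928-101981177 for YAP1, chr3:149375813-149376062 for WWTR1, chr3:11610273-11610522 for VGLL4 and chrX:135614124-135614373 for VGLL1).
YAP1: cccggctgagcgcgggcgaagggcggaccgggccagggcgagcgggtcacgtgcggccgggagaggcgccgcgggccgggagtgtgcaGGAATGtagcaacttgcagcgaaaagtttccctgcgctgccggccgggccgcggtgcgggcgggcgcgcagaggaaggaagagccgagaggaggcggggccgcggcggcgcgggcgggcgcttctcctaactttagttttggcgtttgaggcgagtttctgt
WWTR1: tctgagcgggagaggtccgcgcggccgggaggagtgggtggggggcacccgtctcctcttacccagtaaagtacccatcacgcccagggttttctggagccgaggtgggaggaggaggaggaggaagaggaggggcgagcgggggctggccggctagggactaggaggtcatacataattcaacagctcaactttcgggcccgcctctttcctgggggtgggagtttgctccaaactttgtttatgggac
VGLL4: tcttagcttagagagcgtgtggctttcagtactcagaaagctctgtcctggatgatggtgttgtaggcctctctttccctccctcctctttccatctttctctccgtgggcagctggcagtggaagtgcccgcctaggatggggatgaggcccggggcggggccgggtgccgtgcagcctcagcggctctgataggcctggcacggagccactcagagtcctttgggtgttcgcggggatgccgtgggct
VGLL1: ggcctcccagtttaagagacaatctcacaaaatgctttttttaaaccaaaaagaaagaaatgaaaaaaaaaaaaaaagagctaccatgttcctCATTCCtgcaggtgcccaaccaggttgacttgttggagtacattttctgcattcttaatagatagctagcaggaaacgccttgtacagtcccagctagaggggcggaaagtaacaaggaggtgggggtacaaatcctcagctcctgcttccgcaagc
VGLL1 thus shared these letters with YAP1 while listed at 0 in every library, and a match describes the letters in the window only.

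VGLL4, the corepressor, was the 1 cofactor that passed the test for GLUP, and it passed only over both genotypes together. It was at 11.0, 9.62 and 9.86 FPKM in untreated WT replicates 1, 2 and 3 and at 11.9, 12.4 and 14.3 FPKM in GLUP-treated WT replicates 14, 15 and 16. Under the TEAD4KO label the untreated replicates 1, 2 and 3 held 11.3, 11.0 and 10.7 FPKM, and replicates 14, 15 and 16 with GLUP held 13.3, 14.1 and 15.1 FPKM. Every GLUP library stood above every untreated library of its genotype, and the 6 GLUP libraries also stood above all 6 untreated libraries. Of all rows tested, 10.2% were higher with GLUP without overlap in WT, 2.85% with the label and 0.998% within both genotypes. The share with all 6 above all 6 was not counted. Group means were 10.2 ± 0.733 and 12.8 ± 1.29 FPKM (SD, n = 3) in WT and 11.0 ± 0.262 and 14.2 ± 0.865 FPKM in cells labelled TEAD4KO. Ordered by level, GLUP with the label came first, then GLUP in WT, then the untreated groups with and without the label; the first pair of groups overlapped, as did the last pair. In bulk RNA, more cells that express a gene and more of its RNA per cell cannot be told apart.

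Differences were tested on log2(FPKM + 1) with limma over the 11225 rows that passed the filter, and a gene was called at an adjusted p under 0.05 (Benjamini-Hochberg over all these rows). Fold changes on this scale understate the change of low genes. Averaged over both genotypes, VGLL4 rose with GLUP by a log2 fold change of 0.32 ± 0.058 (SE), with a 95% confidence interval from 0.20 to 0.45, which is 1.25-fold on this scale (limma, adjusted p = 0.0399). It ranked 21 by p among all rows, where 29 rows (0.258%) were called, 19 higher (0.169%) and 10 lower (0.0891%). With each library left out in turn between 11 rows (without untreated WT replicate 1) and 38 rows (without untreated TEAD4KO-labelled replicate 3) were called. Within a genotype VGLL4 did not pass over all rows, with 0.31 ± 0.082 in WT (limma, adjusted p = 0.610) and 0.34 ± 0.082 in cells labelled TEAD4KO (limma, adjusted p = 0.260). These comparisons called 1 row (0.00891%) in WT and 5 rows (0.0445%) in cells labelled TEAD4KO, while 385 and 716 rows had an unadjusted p under 0.05. With array weights 61 rows were called in WT. Both estimates for VGLL4 had intervals above 0, from 0.13 to 0.49 in WT and from 0.16 to 0.51 with the label. The pooled call was near its threshold: with each library left out in turn the estimate stayed between 0.29 and 0.35, but the adjusted p ran from 0.0499 to 0.126 and the call held in 1 of the 12 fits, the one without untreated TEAD4KO-labelled replicate 1. It was also lost without the filter on low values (adjusted p = 0.0779) and with array weights (adjusted p = 0.0889). Across 11077 genes, which are not independent, the GLUP differences over both genotypes ran with transcript length (Spearman's rho = 0.244) and GC content (Spearman's rho = -0.215), and with each library corrected for both VGLL4 was at 0.33 (limma, adjusted p = 0.0118). The summed FPKM of the 5 epithelial markers, nearly all of it KRT8 and CDH1, was lower with GLUP without overlap in both genotypes. In WT it was at 8.49 to 9.56 untreated and 6.48 to 7.49 with GLUP, and with the label at 9.62 to 12.4 and 7.20 to 9.24. The share of all rows lower with GLUP without overlap was not counted. The part of the epithelial markers in the results of VGLL4 and WWTR1 was not tested.

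**Figure D2:**
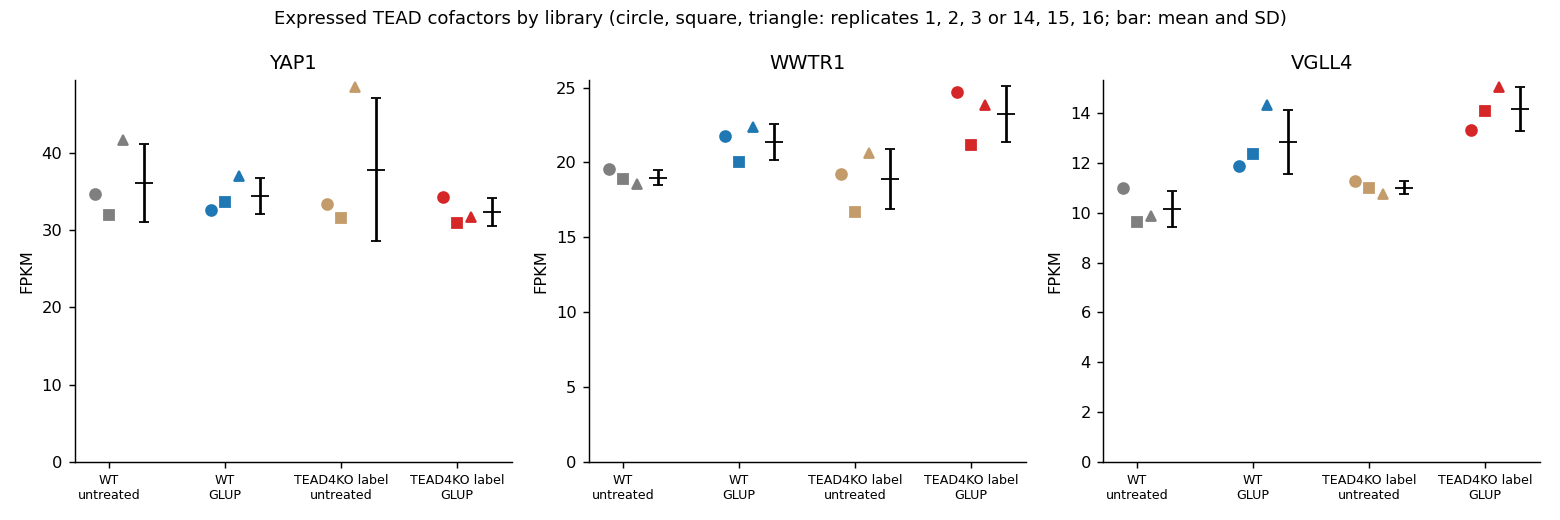
FPKM of YAP1, WWTR1 and VGLL4 in each of the 12 libraries (points), with the mean and SD of each group of 3 beside them. VGLL4 and WWTR1 lay higher in each GLUP group than in the untreated group of the same genotype without overlap, while the YAP1 values overlapped, with the single highest at 48.5 FPKM in untreated TEAD4KO-labelled replicate 3.

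WWTR1, the gene of the coactivator TAZ, was shifted the same way by a smaller amount that did not pass. Untreated WT replicates 1, 2 and 3 held 19.5, 18.9 and 18.5 FPKM and GLUP-treated WT replicates 14, 15 and 16 held 21.8, 20.0 and 22.3 FPKM. With the TEAD4KO label, untreated replicates 1, 2 and 3 held 19.3, 16.7 and 20.6 FPKM, and GLUP-treated replicates 14, 15 and 16 held 24.7, 21.1 and 23.8 FPKM. The GLUP and untreated libraries did not overlap within either genotype, although untreated TEAD4KO-labelled replicate 3 lay above GLUP-treated WT replicate 15. WWTR1 differed by 0.16 ± 0.083 on the log2 scale in WT (limma, adjusted p = 0.999) and by 0.29 ± 0.083 with the label (limma, adjusted p = 0.467). Over both genotypes the estimate was 0.23 ± 0.059 with an interval from 0.10 to 0.35 (limma, adjusted p = 0.223, unadjusted p = 0.00191), which ranked 95 among all rows. The interval lay above 0, but the correction over all rows did not call it.

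For YAP1, the gene of the coactivator YAP, no shift was detected. It was at 34.6, 32.0 and 41.7 FPKM in untreated WT replicates 1, 2 and 3, at 32.6, 33.7 and 37.0 FPKM in GLUP-treated WT replicates, at 33.4, 31.6 and 48.5 FPKM in untreated replicates labelled TEAD4KO and at 34.3, 30.9 and 31.7 FPKM in GLUP-treated replicates with the label. Replicate 3 was the highest of both untreated groups, and the GLUP and untreated values overlapped in both genotypes. The coefficient of variation was 13.9% and 24.5% in the untreated groups and 6.70% and 5.50% in the GLUP groups of WT and TEAD4KO label, respectively. Over both genotypes YAP1 differed by -0.13 ± 0.095 on the log2 scale (limma, adjusted p = 0.853), with an interval from -0.33 to 0.08 that covers differences of either sign. The estimates were -0.06 in WT and -0.19 with the label. Without untreated TEAD4KO-labelled replicate 3 they were -0.0064 with the label and -0.034 over both genotypes.

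Among the 3 tested cofactors, VGLL4 and WWTR1 were higher with GLUP without overlap in both genotypes, and YAP1 was not. Of all 11225 rows, 10.2% were higher without overlap in WT, 2.85% in cells labelled TEAD4KO and 0.998% (112 rows) in both. The response of the 3 cofactors to GLUP was not called different between genotypes: the interaction estimates were -0.13 ± 0.19 for YAP1, 0.13 ± 0.12 for WWTR1 and 0.03 ± 0.12 for VGLL4 (limma, adjusted p = 0.9998 for each). That comparison called 1 of all rows (0.00891%), with 284 at an unadjusted p under 0.05. The VGLL4 interval for the interaction ran from -0.22 to 0.27, so a difference between genotypes as large as most of the GLUP effect itself was not resolved.

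**Figure D3:**
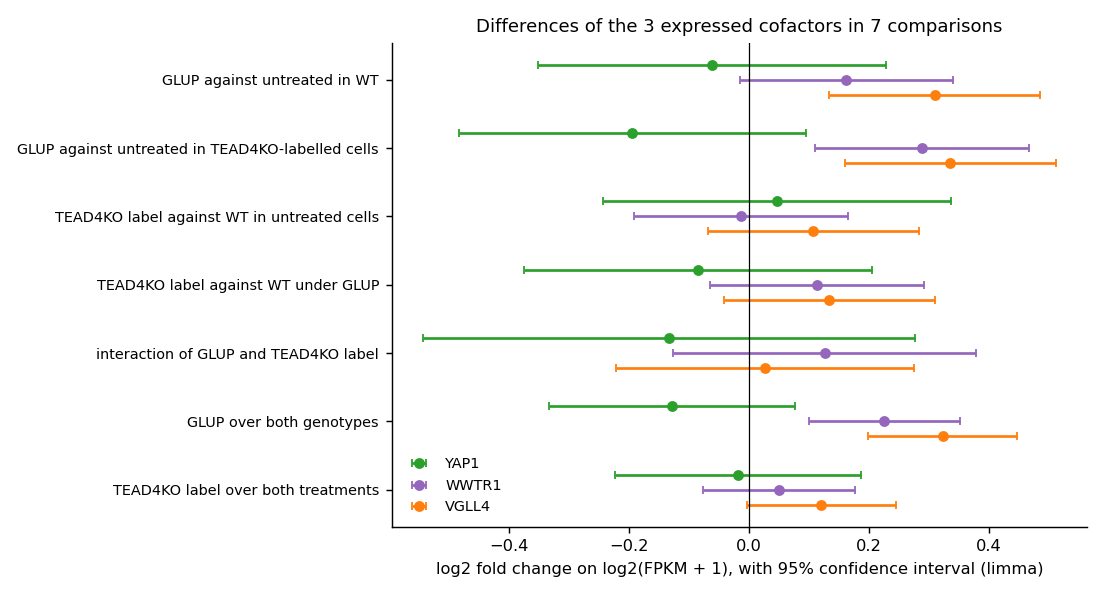
Log2 fold changes on log2(FPKM + 1) of YAP1, WWTR1 and VGLL4 in each comparison (points) with their 95% confidence intervals from limma (bars). The VGLL4 interval for GLUP over both genotypes runs from 0.20 to 0.45. In this fit, without the correction for length and GC content, the intervals of all 3 genes include 0 in every comparison of the TEAD4KO label and in the interaction.

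**Figure D4:**
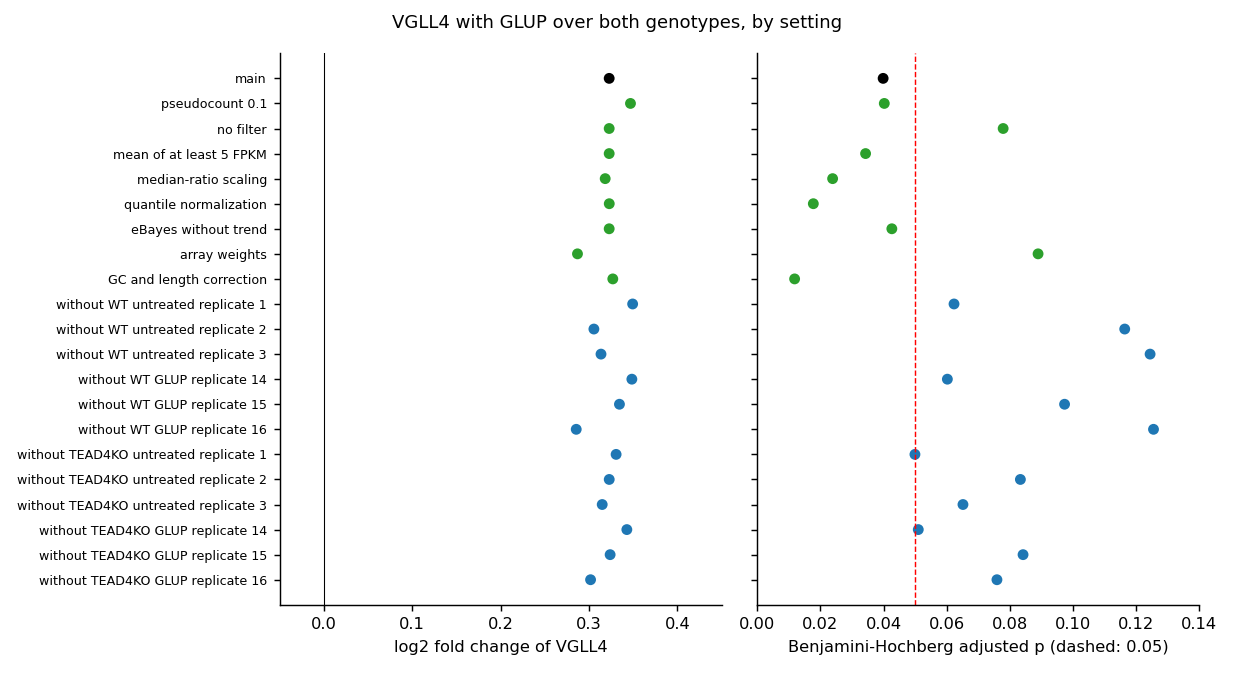
The GLUP effect on VGLL4 over both genotypes (left, log2 fold change) and its adjusted p (right, with the threshold of 0.05 dashed) as reported (black), under other processing (green) and with each library left out (blue). The fold change stayed between 0.29 and 0.35, while the adjusted p lay on both sides of the threshold.

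Since a ratio of transcripts within a library does not depend on how that library was scaled, the balance of the cofactors was compared directly. VGLL4 per YAP1 plus WWTR1, the corepressor against the coactivators, was 0.203, 0.189 and 0.164 in untreated WT replicates 1, 2 and 3 and 0.218, 0.230 and 0.241 in GLUP-treated WT replicates. With the label it was 0.214, 0.228 and 0.155 untreated and 0.226, 0.271 and 0.271 with GLUP. GLUP and untreated libraries did not overlap in WT, whereas with the label untreated replicate 2 lay just above GLUP replicate 14. Over both genotypes the log2 ratio was higher with GLUP by 0.35, or 1.27-fold, with 0.32 in WT and 0.38 with the label (exact permutation test within genotypes, two-sided, p = 0.01, adjusted over the 4 ratio tests p = 0.02).

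WWTR1 per YAP1, the balance between the paralogous coactivators, was higher with GLUP as well. It was 0.564, 0.591 and 0.444 in untreated WT and 0.669, 0.595 and 0.604 in GLUP-treated WT, and 0.577, 0.529 and 0.426 in untreated cells labelled TEAD4KO and 0.720, 0.683 and 0.751 with GLUP. Each GLUP library stood above each untreated library of its genotype, by a narrow margin in WT and a wide one with the label. The log2 ratio was higher by 0.37, or 1.29-fold, with 0.23 in WT and 0.50 with the label (exact permutation test, two-sided, p = 0.005, adjusted p = 0.02). This is the smallest p that the 400 arrangements allow. Both ratio tests, like the limma fit, take the 12 libraries as independent. If same-numbered WT and TEAD4KO-labelled libraries share a culture or batch, these p-values and the pooled adjusted p of VGLL4 are too small. GLUP and untreated libraries share no number. If the numbers mark cultures or batches, differences with GLUP cannot be told apart from differences between these. Replicate 3 of each untreated group, with the highest YAP1, had the lowest value of both ratios. Without untreated TEAD4KO-labelled replicate 3 the differences were 0.26 for VGLL4 per YAP1 plus WWTR1 (exact permutation p = 0.02) and 0.31 for WWTR1 per YAP1 (exact permutation p = 0.005).

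**Figure D5:**
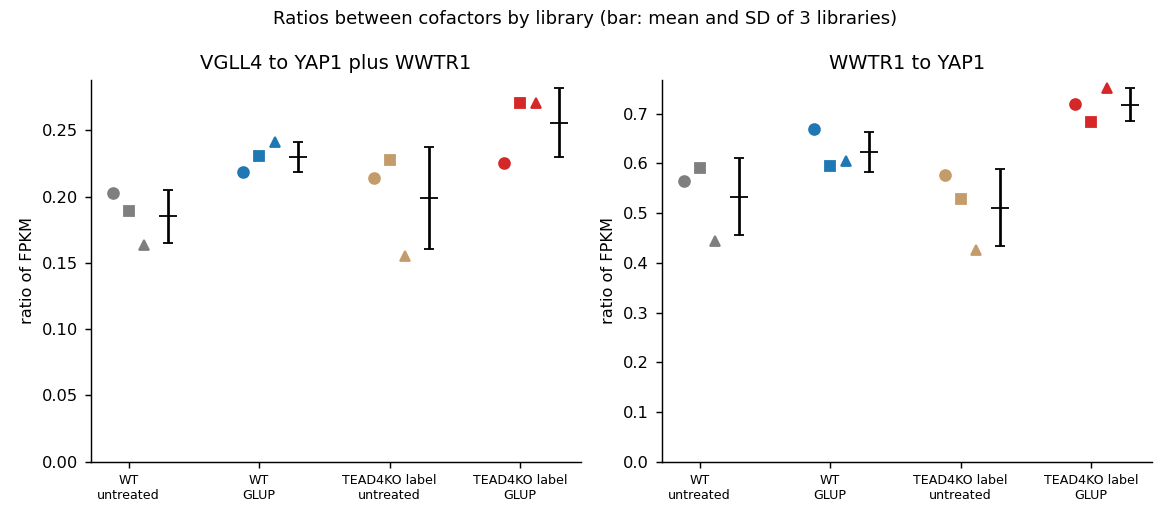
Ratios of FPKM in each library (points) with the mean and SD of each group: VGLL4 to YAP1 plus WWTR1 on the left and WWTR1 to YAP1 on the right. Group means rose from 0.185 to 0.230 in WT and from 0.199 to 0.256 with the TEAD4KO label for VGLL4, and from 0.533 to 0.623 and from 0.511 to 0.718 for WWTR1.

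As shares of the summed cofactor transcripts, YAP1 made up 55.2% ± 3.75 (SD, n = 3) in untreated WT and 50.1% ± 0.899 with GLUP, and 55.4% ± 4.62 and 46.4% ± 1.29 with the label. VGLL4 made up 15.6% ± 1.43 and 18.7% ± 0.763 in WT and 16.6% ± 2.72 and 20.3% ± 1.67 with the label, and WWTR1 made up 29.2% ± 2.49, 31.2% ± 1.49, 28.1% ± 2.14 and 33.3% ± 1.18 in the same order. The sum itself was 65.3 ± 4.82, 68.6 ± 4.33, 67.7 ± 10.8 and 69.7 ± 3.20 FPKM, and these ranges overlapped. Set against the 4 TEAD transcripts, which summed to between 66.2 and 79.8 FPKM per library, there were 0.795 to 1.13 cofactor FPKM for each TEAD FPKM.

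With the TEAD4KO label 0 of the 3 tested cofactors passed the threshold, in comparisons that share libraries with each other and with those of GLUP. In untreated cells the log2 fold changes against WT were 0.05 ± 0.13 for YAP1, -0.01 ± 0.083 for WWTR1 and 0.11 ± 0.082 for VGLL4 (limma, adjusted p = 0.875, 0.947 and 0.480), in a comparison where 608 rows (5.42%) were called, 552 higher (4.92%) and 56 lower (0.499%). Under GLUP they were -0.09, 0.11 and 0.13 (limma, adjusted p = 0.732, 0.427 and 0.334), against 656 rows (5.84%) called, 551 higher (4.91%) and 105 lower (0.935%). Over both treatments VGLL4 was the largest of the 3 at 0.12 ± 0.058, with an interval from -0.004 to 0.24 (limma, adjusted p = 0.155), while WWTR1 was at 0.05 ± 0.059 and YAP1 at -0.02 ± 0.095 (limma, adjusted p = 0.576 and 0.907). That comparison called 2247 rows (20.0%), 1611 higher (14.4%) and 636 lower (5.67%), and 0 of the 3 cofactors. These counts over all rows moved with single libraries. In untreated cells they ran from 119 (without untreated WT replicate 3) to 1186 (without untreated TEAD4KO-labelled replicate 1), under GLUP from 196 (without GLUP-treated WT replicate 16) to 1952 (without GLUP-treated TEAD4KO-labelled replicate 16), and over both treatments from 1388 (without untreated WT replicate 3) to 3320 (without GLUP-treated TEAD4KO-labelled replicate 16). Across the same 11077 genes the label differences ran with transcript length (Spearman's rho = -0.480 in untreated cells and -0.449 under GLUP), so each library was also corrected for length and GC content. VGLL4 over both treatments was then at 0.14, with an interval from 0.03 to 0.25 (limma, adjusted p = 0.0745). Under GLUP VGLL4 was at 0.18, with an interval from 0.02 to 0.33 (limma, adjusted p = 0.163). WWTR1 under GLUP was at 0.17, with an interval from 0.02 to 0.31 (limma, adjusted p = 0.164). The other intervals with the label included 0. After this correction 0 cofactors passed, while 223 rows (1.99%) were called in untreated cells, 419 (3.73%) under GLUP and 1637 (14.6%) over both treatments. The ratios did not pass with the label either, with 0.12 for VGLL4 per YAP1 plus WWTR1 (exact permutation test, two-sided, p = 0.265, adjusted p = 0.353) and 0.07 for WWTR1 per YAP1 (exact permutation test, p = 0.47). Without untreated TEAD4KO-labelled replicate 3 the first of these was 0.20 (exact permutation p = 0.035).

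Of the 4 TEAD factors, the DNA-binding partners of the cofactors, 2 were called lower with the label in untreated cells. Under GLUP 1 was called higher and 1 lower, and over both treatments 1 higher and 2 lower. Of all rows 5.42%, 5.84% and 20.0% were called in these comparisons. TEAD2 was at 13.3 ± 0.693 FPKM in untreated WT and 9.16 ± 1.24 FPKM in untreated cells labelled TEAD4KO, and at 14.2 ± 0.301 and 10.2 ± 0.829 FPKM under GLUP. It fell by 0.50 ± 0.091 and by 0.45 ± 0.091 on the log2 scale (limma, adjusted p = 0.00830 and 0.0125), and none of its WT libraries overlapped those with the label. TEAD1 fell from 31.8 ± 1.59 to 25.1 ± 3.25 FPKM in untreated cells (limma, log2 fold change -0.33 ± 0.090, adjusted p = 0.0482) and was at 30.6 and 26.8 FPKM under GLUP (limma, adjusted p = 0.222). TEAD4 was called higher with the label under GLUP (0.23 ± 0.063, limma, adjusted p = 0.0479) and over both treatments (0.20 ± 0.044, limma, adjusted p = 0.00752), and TEAD3, at 7.99 to 8.70 FPKM in the group means, was not called in any comparison. With the correction for length and GC content TEAD4 was not called, so that 0 TEAD factors were called higher and 2 lower over both treatments. The calls of TEAD1 in untreated cells and of TEAD4 under GLUP lay near the threshold. The counts over all rows in these comparisons moved with single libraries. The summed FPKM of the 4 mesenchymal markers, nearly all of it VIM, was higher with the label without overlap in both treatments. It was at 1323 to 1393 in WT and 1430 to 1633 with the label untreated, and at 1268 to 1328 and 1376 to 1730 under GLUP. The part of VIM in the results of the label was not tested. The share of all rows separated by the label without overlap, as this sum and TEAD2 were, was not counted. For GLUP, 0 of the 4 TEAD factors were called within either genotype or over both. Of all rows 0.00891% were called in WT, 0.0445% with the label and 0.258% over both.

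The genes around the cofactors were taken from lists of pathway membership. With GLUP 0.00891% of all rows were called in WT, 0.0445% with the label and 0.258% over both genotypes. At these shares, 0 calls with GLUP in a short list say little about that list. Of 11 TEAD complex partners, which include the CtBP corepressors and the CBP and p300 acetyltransferases, 9 passed the filter, and 0 were called with GLUP. Over both treatments 4 of the 9 were called lower with the label, where 5.67% of all rows were, among them MED1, a Mediator subunit (23.9 against 27.8 FPKM), EP300 (13.8 against 17.7 FPKM) and CREBBP (14.5 against 18.3 FPKM). The list had a median log2 fold change of -0.21, against 0.01 over all rows. After the correction for length and GC content its median was -0.099, with 4 called lower. All 15 genes of the Hippo kinase core and its activators passed the filter, and 0 were called with GLUP within a genotype or over both. LATS1, the kinase that phosphorylates YAP and TAZ, was the single gene called with the label over both treatments, at 4.20 against 5.43 FPKM. This 1 lower call of 15 was near the 5.67% of all rows called lower. Of 20 genes of the retention and turnover of YAP and TAZ, 0 were called with GLUP. Over both treatments with the label AMOTL2 was called higher (18.5 against 15.9 FPKM), while AMOT and PTPN14 were called lower. All 3 encode proteins that hold YAP at junctions or in the cytoplasm. These counts were 1 higher and 2 lower of 20, where 14.4% of all rows were called higher and 5.67% lower. The lower calls of AMOT and PTPN14 were not made after the correction for length and GC content, with which 1 gene of this list was called higher and 0 lower.

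Of 22 targets of YAP, TAZ and TEAD, 20 passed the filter. With GLUP over both genotypes 1 was called, TGFB2, a ligand of the TGF-beta family, which was at 16.3 FPKM with GLUP and 11.95 FPKM without (log2 fold change 0.41 ± 0.055, limma, adjusted p = 0.00521) and thus higher, as VGLL4 was. The median over the targets was -0.01, against -0.004 over all rows, and 9 estimates were above 0 and 11 below. Within WT and within the label 0 targets were called with GLUP, where 0.00891% and 0.0445% of all rows were. Over both genotypes 0.258% of all rows were called. After the correction for length and GC content TGFB2 was called in cells labelled TEAD4KO (log2 fold change 0.41, limma, adjusted p = 0.0232), a comparison in which 7 rows (0.0624%) were then called. With the label, 2 targets were called higher in untreated cells, FJX1 and IGFBP3 (146 against 111 FPKM), where 4.92% of all rows were. Under GLUP 5 were called higher, where 4.91% of all rows were. Over both treatments 8 were called higher and 2 lower (ASAP1 and PTPN14), against 14.4% of all rows higher and 5.67% lower. With the correction for length and GC content these counts were 0, 1 (AMOTL2), and 7 higher with 3 lower. Of the 7 higher, IGFBP3, AMOTL2 and FJX1 had the smallest adjusted p, and the 3 lower were ASAP1, ARHGEF17 and AXL. After this correction 1.99%, 3.73% and 14.6% of all rows were called in the same comparisons, higher or lower. AMOTL2 and PTPN14 belong to both this list and the preceding one.

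The rows whose pattern over the 12 libraries was most like that of each cofactor were found by Pearson's r of log2(FPKM + 1), given as a description, since the libraries share groups. VGLL4 was followed by PRR4 (r = 0.936), ETV1 (r = 0.914) and RARA (r = 0.907), with ETV1, an ETS transcription factor, between 5.88 and 12.01 FPKM. WWTR1 was followed by ELF1 (r = 0.962), CAPN2 (r = 0.962) and NDNF (r = 0.953), and YAP1 by GPSM2 (r = 0.924), GLCE (r = 0.851) and NUSAP1 (r = 0.844). Between the cofactors themselves r was 0.754 for WWTR1 and VGLL4, -0.027 for YAP1 and WWTR1 and -0.339 for YAP1 and VGLL4, each over 12 libraries. No row was named for more than a single cofactor.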

How the data were processed

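RNA-seq of 12 HGC-27 libraries was deposited by the authors as FPKM per Ensembl gene, 1 column per library, unpooled. The submitters' processing notes name HISAT2, Cufflinks, RSEM and hg19, and the methods name an online cloud platform; versions, roles and annotation are not given in the sources used here. Groups came from the labels. The methods state biological replicates without saying which samples these are, so p-values measure the spread between samples, which may in part be technical. Depth is unknown. The members and lists were chosen with earlier results of these data known.

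The 11225 rows whose mean reached 1 FPKM were transformed to log2(FPKM + 1). A 4-group model was fitted with limma 3.58.1 in R 4.3.3 (eBayes with trend, Benjamini-Hochberg over all rows, call at 0.05) and tested on simulated data. Log2 ratios were compared by exact permutation within strata. Symbols matched 94.2% of rows, and positions, lengths and GC content came from GENCODE 44 lifted to GRCh37. Promoter windows came from RefSeq on GRCh38.p14 and were placed on GRCh37 by exact match. Genes named were the cofactors, TEAD1 to TEAD4, up to 3 called genes per list, comparison and direction with the smallest adjusted p, and the 3 rows most correlated with each cofactor. Alternatives were a pseudocount of 0.1, no filter, a floor of 5 FPKM on the mean, quantile normalization, median-ratio scaling, array weights, eBayes without trend, a fold change over 2, a fit of only the groups compared, a correction for GC content and transcript length, the replicate number as a block, and each library left out. Deviations of same-numbered WT and TEAD4KO-labelled libraries correlated at 0.106, 0.152 and 0.336 under GLUP and at -0.057, 0.203 and -0.015 without treatment. Differently numbered libraries ran from -0.245 to 0.134 under GLUP and from -0.191 to 0.182 without treatment. These values do not settle whether the libraries are paired. Pairing by number entered only the replicate block and the sign flips, and the main model does not use it.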

Additional observations from a re-analysis of the deposited data

How the results depend on the processing

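The call of VGLL4 for GLUP over both genotypes (1 cofactor) became 0 without the filter on low values, with array weights and with a required fold change over 2, and ran from 0 to 1 with each library left out. It was kept with a pseudocount of 0.1, a floor of 5 FPKM, quantile normalization, median-ratio scaling, eBayes without trend and the correction for GC content and length (adjusted p from 0.0118 to 0.0426). The effect sizes of VGLL4 and WWTR1 for GLUP were above 0 in every fit run. Without filter 13 rows and after the GC and length correction 55 rows were called for GLUP over both genotypes.

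Signs turned for estimates near 0. For YAP1 the GLUP effect in WT ran from -0.14 to 0.044 with a library left out, and its interaction from -0.25 to 0.055. The YAP1 label difference in untreated cells was -0.024 with quantile normalization and ran from -0.14 to 0.16 with a library left out. The YAP1 label difference over both treatments was 0.047 with array weights and 0.038 after the GC and length correction, with or without the replicate block, and ran from -0.11 to 0.038 with a library left out. For WWTR1 the label difference in untreated cells was 0.016 after the GC and length correction, with or without the replicate block, and ran from -0.078 to 0.067 with a library left out; over both treatments it was -0.0014 with quantile normalization. The VGLL4 interaction ran from -0.027 to 0.10. The cause of these changes was not tested.

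The ratio tests with GLUP kept an exact permutation p from 0.005 to 0.02 with any library left out, with differences from 0.26 to 0.40 for VGLL4 per YAP1 plus WWTR1 and from 0.30 to 0.41 for WWTR1 per YAP1. For the label the first ratio ran from 0.067 to 0.20, with the highest value (exact permutation p = 0.035) without untreated TEAD4KO-labelled replicate 3. With the replicate block, which pairs WT and TEAD4KO-labelled libraries, VGLL4 over both treatments was at 0.12 (limma, adjusted p = 0.103) and under GLUP at 0.13 (limma, adjusted p = 0.246). Sign flips over 6 pairs, which may share only a number, gave p = 0.094 for the first ratio and p = 0.375 for the second (exact permutation). The block changed no call of a cofactor. GLUP and untreated samples share no numbers, so no block could be fitted for GLUP, and a batch that followed the numbers cannot be told apart from GLUP. The unknown depth leaves values near 0, such as those of VGLL1, VGLL2 and VGLL3, without a lower limit of detection.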
